A study of Mus musculus with 2 samples.

Results

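Toll-like receptors (TLRs) and the 2 proteins that help TLR4 to see bacterial lipopolysaccharide were examined in whole omentum after ablation of cells that use the Postn promoter. The set was chosen by gene symbol and holds 10 of the 24346 genes listed: Tlr1, Tlr2, Tlr3, Tlr4, Tlr6, Tlr7, Tlr8, Tlr13, Cd14 and Ly96. The omentum is a sheet of visceral fat carrying milky spots, which are clusters of lymphocytes, macrophages and stromal cells. Each genotype, WT and Postn-DTR, gave 1 library of entire omentum, taken 5 days after diphtheria toxin (DT), so the control mice received the toxin too. Postn-DTR mice are heterozygotes with a DT receptor inserted in the first coding exon of Postn, on a C57BL/6 background. Postn is also used by mesenchymal cells of other organs, and some of these mice are described as having an enlarged cecum after DT, so effects from outside the omentum were not separated. The age of the mice and the number of omenta in each library were not given in the sources used here. With 1 library per genotype there was no spread between replicates and no test between genotypes was possible. A difference below is a difference between 2 libraries.

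TLRs are membrane receptors that recognize microbial molecules and some products of damaged cells. TLR1, TLR2, TLR4 and TLR6 act mainly at the cell surface, where TLR2 pairs with TLR1 or TLR6 to bind bacterial lipopeptides and TLR4 binds lipopolysaccharide through MD-2, the product of Ly96. CD14 hands lipopolysaccharide to the TLR4 and MD-2 complex and also assists other TLRs. TLR3, TLR7, TLR8 and TLR13 act in endosomes, TLR3 on double-stranded RNA, TLR7 and TLR8 on single-stranded RNA and its breakdown products, and TLR13 on bacterial ribosomal RNA. Most of these receptors signal through the adaptor MyD88, TLR3 signals through TRIF, and TLR4 uses both. In adipose tissue they are found on macrophages and other leukocytes, and some of them on adipocytes and stromal cells.

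The values were FPKM, in which the fragments of a gene are divided by its transcript length and by the size of the library. A change is the log2(FPKM + 1) of the Postn-DTR library less that of the WT library, a scale on which low genes appear to change less than they do. Genes whose FPKM averaged 1 or more were compared, and 13127 genes met this minimum, among them all 10 members. A gene was called higher or lower when its change reached 2-fold, and fold values given for single genes are plain FPKM ratios. From the spacing of low FPKM values the libraries were estimated to hold about 23250000 fragments in WT and 24050000 in Postn-DTR. Intervals are 95% exact binomial (Clopper-Pearson) or Poisson intervals on reads estimated from these totals and annotated transcript lengths. They cover counting error only and say nothing of the variation between mice.

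As a check of the tissue, no adipocyte, mesothelial, B cell or macrophage marker was at 0 in either library. The 3 adipocyte markers together came to 1299 FPKM (WT) and 845.3 FPKM (Postn-DTR), and the 3 mesothelial markers to 311.4 and 279.0. Genes of the acinar cells of the pancreas, which lies beside the omentum, came to 12640 FPKM (WT) and 21.6 FPKM (Postn-DTR). The libraries also differed in Xist, which is transcribed from the inactive X chromosome of females, at 7.71 in WT and 15.7 in Postn-DTR, while the Y-linked genes Ddx3y (10.3 and 3.66) and Kdm5d (4.10 and 1.39) went the other way.

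Reads of Tlr1 and Tlr6 can be confused, and the sequence that causes this is shown first. These neighbouring genes lie on the minus strand of chromosome 5 (GRCm38), Tlr1 (ENSMUSG00000044827) at chr5:64924679-64933563 and Tlr6 (ENSMUSG00000051498) at chr5:64952031-64960097. Of the 3332 different 50-base windows in the annotated Tlr1 transcripts, 454 also occur in Tlr6, and in all 15.4% of Tlr1 windows and 12.3% of Tlr6 windows occur in a transcript of some other gene. For Tlr4 this share was 0.018%, and for the other 7 members it was 0%. The longest identical run is 229 bases. It is printed below, 5′ to 3′ on the coding strand, with 30 bases on each side and the 2 differing bases in capitals. The whole stretch of 289 bases is protein coding in both genes.
Tlr1, chr5:64925507-64925795: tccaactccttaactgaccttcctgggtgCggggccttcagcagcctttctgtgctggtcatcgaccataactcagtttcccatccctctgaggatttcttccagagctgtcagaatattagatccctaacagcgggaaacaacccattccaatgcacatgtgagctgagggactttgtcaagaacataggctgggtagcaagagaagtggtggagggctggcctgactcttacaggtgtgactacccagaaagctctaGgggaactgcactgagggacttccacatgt
Tlr6, chr5:64953798-64954086: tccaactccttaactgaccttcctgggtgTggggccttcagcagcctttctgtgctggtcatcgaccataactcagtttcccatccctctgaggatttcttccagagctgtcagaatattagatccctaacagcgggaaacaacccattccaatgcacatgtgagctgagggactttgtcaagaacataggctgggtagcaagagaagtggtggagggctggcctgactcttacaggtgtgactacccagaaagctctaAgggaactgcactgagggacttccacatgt
A fragment that lies wholly inside the identical run cannot be assigned to either gene, so the separate FPKM of Tlr1 and Tlr6 are less certain than those of the other members.

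The upstream sequences of 4 members are shown because these genes had the largest differences in each direction among the members whose sequence was used here. They are Tlr13 and Tlr2, with more transcript in Postn-DTR, and Tlr1 and Tlr3, with less. Each is the 250 bases before a RefSeq start site (GRCm38.p6), 5′ to 3′ on the strand of the gene, and capitals mark matches to the motifs searched. These start sites lie inside the GENCODE gene spans given here, by 700 bases for Tlr3, 159 for Tlr2, 71 for Tlr13 and 5 for Tlr1, so the Tlr3 stretch is wholly within the annotated gene and the others overlap theirs in part.
Tlr13, chrX:106143025-106143274, plus strand: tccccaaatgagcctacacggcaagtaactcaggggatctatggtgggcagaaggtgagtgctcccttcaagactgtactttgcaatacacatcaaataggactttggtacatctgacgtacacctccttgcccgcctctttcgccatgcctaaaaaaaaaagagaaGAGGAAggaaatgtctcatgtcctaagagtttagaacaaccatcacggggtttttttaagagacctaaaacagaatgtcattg
Tlr2, chr3:83841609-83841858, minus strand: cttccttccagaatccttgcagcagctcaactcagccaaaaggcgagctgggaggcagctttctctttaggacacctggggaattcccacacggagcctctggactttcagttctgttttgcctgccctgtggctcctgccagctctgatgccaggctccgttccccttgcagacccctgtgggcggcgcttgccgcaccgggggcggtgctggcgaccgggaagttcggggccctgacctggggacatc
Tlr1, chr5:64933559-64933808, minus strand: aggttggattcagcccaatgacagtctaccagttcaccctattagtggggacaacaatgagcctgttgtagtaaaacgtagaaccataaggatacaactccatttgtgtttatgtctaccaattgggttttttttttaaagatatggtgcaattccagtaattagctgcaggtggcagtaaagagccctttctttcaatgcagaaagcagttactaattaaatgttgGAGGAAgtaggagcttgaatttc
Tlr3, chr8:45410381-45410630, minus strand: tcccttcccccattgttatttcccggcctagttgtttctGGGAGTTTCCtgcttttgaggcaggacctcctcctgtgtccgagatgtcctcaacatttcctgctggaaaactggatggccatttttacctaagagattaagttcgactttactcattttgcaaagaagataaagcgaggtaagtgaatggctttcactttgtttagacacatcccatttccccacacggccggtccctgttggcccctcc
Both strands were searched for GAGGAA (the core of sites of the myeloid factor PU.1), a NF-kappaB motif (GGG and TTTCC parted by 2 bases), an interferon regulatory factor motif (GAAA and GAAA parted by 2 bases), TTGCGCAA (C/EBP) and TGANTCA (AP-1). GAGGAA was found at position -83 from the start of Tlr13 and at -23 from that of Tlr1, 1 gene from each direction. It occurs in 28.3% of all 32851 promoter windows of 300 bases (250 before and 50 after the start). The NF-kappaB motif was found at position -211 from the start of Tlr3, and 1.63% of all windows hold it. No match was found in the Tlr2 window, and the letters of the C/EBP (0.183% of windows) and AP-1 (7.81%) motifs were in none of the 4. No match was seen in 2 further windows of Tlr1 and Tlr6, while the second window of Tlr6 held a pair of overlapping matches to the interferon regulatory factor motif (3.44% of windows) and Tlr8 held GAGGAA.

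The lipopolysaccharide co-receptors gave the largest difference in the set. Cd14 (ENSMUSG00000051439, chromosome 18) stood at an FPKM of 33.6 in the WT library and 230.1 in the Postn-DTR library. It was 6.84-fold higher in Postn-DTR (counting interval 6.43 to 7.30), a change of 2.74 on the log2(FPKM + 1) scale. Of all genes compared, 0.495% had a larger change. Ly96 (ENSMUSG00000025779, chr1:16688051-16709611, plus strand), which encodes MD-2, was at 19.1 FPKM in WT, against 26.3 FPKM in Postn-DTR. Its ratio was 1.37 (1.13 to 1.66) and its change 0.44, so it stayed within 2-fold. Cd14 was thus set apart from its partner by a wide margin, and the ratio of Cd14 to Ly96 within a library went from 1.76 in WT to 8.75 in Postn-DTR.

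The surface receptor Tlr4 (ENSMUSG00000039005, chr4:66827584-66930284, plus strand), which signals for lipopolysaccharide, was at 5.75 FPKM in WT, against 8.37 FPKM in Postn-DTR. Its ratio was 1.46 (1.30 to 1.63) and its change 0.47. A ratio of 2 genes within a library does not depend on how the libraries are scaled to each other. The FPKM of Ly96 was 3.33 times that of Tlr4 in WT and 3.14 times in Postn-DTR, so receptor and MD-2 kept nearly the same proportion. The FPKM of Cd14 was 5.85 times that of Tlr4 in WT and 27.5 times in Postn-DTR. The proportion of the co-receptor to the receptor was therefore 4.70 times as large in the Postn-DTR library.

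Of the partners of TLR2, Tlr6 nearly kept its proportion to Tlr2 and Tlr1 did not. Tlr2 (ENSMUSG00000027995, chr3:83836272-83841767, minus strand), the shared subunit of the lipopeptide receptors, was at 12.4 FPKM in WT, against 23.5 FPKM in Postn-DTR, a ratio of 1.90 (1.74 to 2.07) and a change of 0.87. Tlr6, the partner for diacylated lipopeptides, was at 2.27 FPKM and 4.01 FPKM, a ratio of 1.77 (1.47 to 2.13) and a change of 0.62. Tlr1, the partner for triacylated lipopeptides, was at 13.2 FPKM in WT, against 8.85 FPKM in Postn-DTR. It was thus 1.49 times as high in WT as in Postn-DTR, with a change of -0.53, and 10.3% of genes compared had a more negative change. All 3 stayed within 2-fold on the log2 scale. Within a library, the ratio of Tlr1 to Tlr2 went from 1.07 in WT to 0.377 in Postn-DTR, whereas that of Tlr6 to Tlr2 was 0.184 and 0.171. The ratio of Tlr1 to Tlr6 was 2.64 times as large in WT as in Postn-DTR, a comparison in which the shared sequence shown above takes part.

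Among the endosomal members, Tlr13 (ENSMUSG00000033777, chrX:106143204-106160493, plus strand) was the one past 2-fold. It was at 6.63 FPKM in WT, against 21.7 FPKM in Postn-DTR, which was 3.27-fold higher (2.99 to 3.60), with a change of 1.57 that 1.53% of genes compared exceeded. Tlr7 (ENSMUSG00000044583, chrX:167304929-167330558, minus strand) was at 9.86 FPKM in WT, against 17.1 FPKM in Postn-DTR, a ratio of 1.74 (1.60 to 1.89) and a change of 0.74. Its neighbour Tlr8 (ENSMUSG00000040522, chrX:167242696-167264329, minus strand) was at 5.07 FPKM and 5.53. FPKM The ratio of Tlr8 was 1.09 with a counting interval of 0.949 to 1.26, so a difference in Tlr8 was not detectable at this depth, and its change of 0.11 turned to -0.18 once both totals were set equal without the acinar genes. Tlr3 (ENSMUSG00000031639, chr8:45395665-45411080, minus strand) was at 6.62 FPKM in WT, against 3.77 FPKM in Postn-DTR. It was 1.75 times as high in WT, with a change of -0.67, and 6.90% of genes compared had a more negative change. An annotated antisense gene, Gm45542, overlaps Tlr3 over 698 bases, and was not analysed here.

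The RNA sensors were also compared within each library. The ratio of Tlr13 to Tlr7 was 0.673 in WT and 1.27 in Postn-DTR, the ratio of Tlr8 to Tlr7 was 0.514 and 0.323, and the ratio of Tlr3 to Tlr7 was 0.671 and 0.220. Relative to Tlr7, the sensor of bacterial ribosomal RNA was thus more abundant in Postn-DTR and the sensor of double-stranded RNA less abundant. Tlr7, Tlr8 and Tlr13 are all X-linked, and the libraries differed in Xist and Y-linked transcripts as given above. The 381 X-linked genes compared had a median change of -0.083, and 13 of them (3.41%) were at least 2-fold higher. The part of the sex of the mice in the values of these 3 receptors was not tested.

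In all, 2 of the 10 members (Cd14 and Tlr13) were at least 2-fold higher in Postn-DTR, where 3.88% of all genes compared were called higher. None of the 10 was at least 2-fold lower, where 3.12% of all genes were called lower. At a 1.5-fold threshold 5 members were higher and 1 lower (9.86% and 8.84% of all genes), and at 3-fold 1 was higher and 0 lower (1.52% and 1.17%). The FPKM was larger in Postn-DTR for 8 members and smaller for Tlr1 and Tlr3. The median change of the members was 0.54, and that of all genes compared was 0.02. The groups cannot be said to overlap or not, since each holds 1 value. With the FPKM as deposited, the counting intervals of the ratio excluded equal levels for 9 members, all but Tlr8. The intervals were not recomputed under other scalings. With equal totals after leaving out the acinar genes, the change of Ly96 fell to 0.11 and that of Tlr4 to 0.17. The 2 highest FPKM in both libraries belonged to Cd14 and Ly96, as the plot of members by library shows. In WT they were followed by Tlr1, Tlr2, Tlr7, Tlr13, Tlr3, Tlr4, Tlr8 and Tlr6, and in Postn-DTR by Tlr2, Tlr13, Tlr7, Tlr1, Tlr4, Tlr8, Tlr6 and Tlr3. Of the 9 pairs of neighbours in this order, 4 had overlapping counting intervals in WT (Tlr1 with Tlr2, Tlr13 with Tlr3, Tlr3 with Tlr4 and Tlr4 with Tlr8). In Postn-DTR there were also 4 (Ly96 with Tlr2, Tlr2 with Tlr13, Tlr1 with Tlr4 and Tlr6 with Tlr3).

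**Figure D1:**
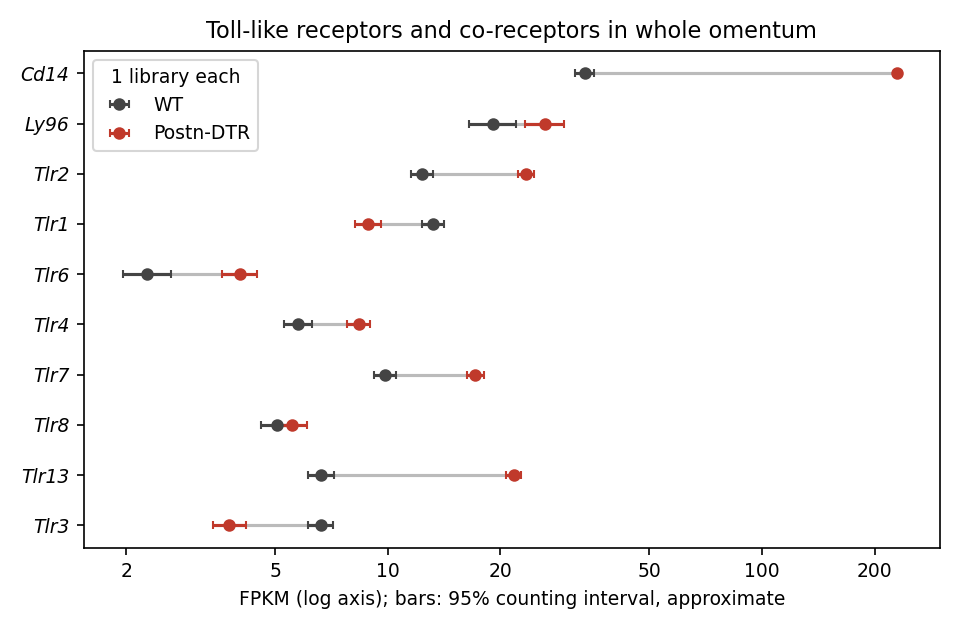
FPKM of the 10 members on a log axis, with 1 point for the WT library (grey) and 1 for the Postn-DTR library (red), and bars for the approximate 95% counting interval. Cd14 lies at 33.6 and 230.1 and Tlr13 at 6.63 and 21.7, while Tlr1 and Tlr3 have their red point to the left of the grey one.

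The 8 member receptors together came to 61.8 FPKM in WT, against 92.8 FPKM in Postn-DTR. All 12 mouse TLR genes listed, with Tlr5, Tlr9, Tlr11 and Tlr12 added, summed to 79.8 and 99.9, a ratio of 1.25. The total over all genes was larger in Postn-DTR too, at 671882 against 542190 for WT. Setting the totals equal without the acinar genes multiplies each Postn-DTR value by 0.788. The receptor sums were not recomputed on that scale, so a higher total of TLR transcript cannot be read from them. The 4 added genes all had less transcript in Postn-DTR. Tlr9, which recognizes unmethylated CpG DNA, fell to an FPKM of 3.69 in Postn-DTR, which was 2.71-fold lower than in WT. Tlr11, which with TLR12 recognizes profilin of parasites, fell from 2.86 to 0.249 on about 199.0 and 17.9 estimated reads. Tlr12 was at 1.63 and 0.475 and Tlr5, the flagellin receptor, at 3.52 and 2.66, both within 2-fold on the log2(FPKM + 1) scale. As a plain ratio Tlr12 was 3.44-fold lower in Postn-DTR, on about 112.5 and 33.9 estimated reads. With a pseudocount of 0.1 the list that holds these 4 genes with Cd180 and Ly86 had 3 genes called lower. The make-up of the family therefore differed more than its sum. Tlr2 made up 15.5% of the summed FPKM in WT and 23.5% in Postn-DTR, and Tlr13 made up 8.31% and 21.7%. Tlr1 went from 16.6% to 8.86%, Tlr3 from 8.29% to 3.78% and Tlr9 from 12.5% to 3.70%. Surface receptors together held 46.5% and 47.4%, so the balance of surface and endosomal receptors was nearly the same in both libraries.

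**Figure D2:**
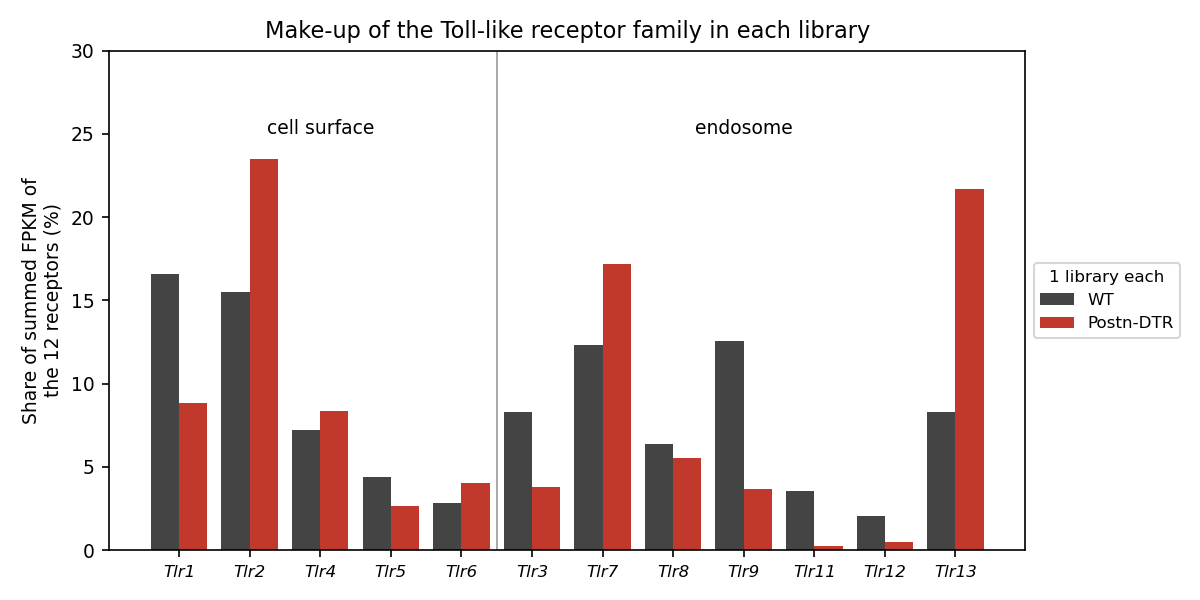
Share of the summed FPKM of 12 TLR genes held by each gene, in percent, in the WT library (grey bars) and the Postn-DTR library (red bars), with surface receptors on the left and endosomal ones on the right. The first gene of the WT library is Tlr1 at 16.6%, and Tlr2 (23.5%) and Tlr13 (21.7%) lead in Postn-DTR.

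In whole tissue a change in the number of cells of a type and a change in RNA per cell cannot be told apart. The members were therefore set beside cell markers. FPKM is relative to the size of the library, so a marker can also rise when other cells are lost. The paper counted omental cells 5 days after DT. It reports unchanged macrophage numbers but fewer leukocytes in total, with T cells and conventional B cells reduced. The part of such losses in the marker values below was not tested. All 8 macrophage markers had a larger FPKM in Postn-DTR, 3 of them at least 2-fold (3.88% of all genes), with a median change of 0.90 and a sum of 3571 FPKM in WT, against 5871 FPKM in Postn-DTR. Itgam (CD11b) rose from 46.8 to 251.9, Adgre1 (F4/80) from 41.1 to 137.6 and Cd68 from 113.8 to 369.4, while Csf1r was at 158.3 and 219.1 and the most abundant, Lyz2, at 2459 and 3563. Of 5 markers of resident peritoneal macrophages, 4 had a larger FPKM in Postn-DTR, and the median change was 0.74. Cd163 rose from 29.2 to 69.5, while Gata6 was at 18.6 and 33.1, Icam2 at 34.3 and 58.0 and Timd4 at 29.6 and 39.2. Lyve1, the most abundant, was at 108.5 and 95.04. Of 5 neutrophil markers, Retnlg rose from 12.8 to 72.6, Csf3r from 6.87 to 15.9 and Cxcr2 from 0.514 to 4.03, and Mpo fell from 3.84 to 0.726, while Mmp9 was at 27.2 and 22.9. Among 3 monocyte markers Ly6c2 rose from 50.9 to 150.3, Ccr2 fell from 39.6 to 16.4 and Plac8 was at 148.5 and 202.3.

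Markers of dendritic cells and lymphocytes went the other way. All 5 dendritic cell markers had a smaller FPKM in Postn-DTR, and their sum was 23.3 in WT and 9.56 in Postn-DTR. Among them Flt3 fell from 6.56 to 1.49, and Clec9a (5.85 to 1.62) and Xcr1 (2.77 to 0.517), which mark the conventional dendritic cells known for Tlr3, fell too, while Zbtb46 was at 5.78 and 4.90. All 5 B cell markers had a smaller FPKM as well, with a sum of 344.6 and 236.0. Fcer2a fell from 30.5 to 3.10 and Ms4a1 from 56.8 to 23.6, and Cd79a was at 190.9 and 169.6. All 4 T cell markers fell at least 2-fold (3.12% of all genes), Lck from 20.3 to 8.37, Cd3e from 15.6 to 6.82, Cd4 from 11.3 to 3.41 and Cd8a from 2.81 to 0.897, with a sum of 49.95 and 19.5. Among stromal markers the fibroblast gene Dpt fell from 236.9 to 67.3 and the mesothelial gene Lrrn4 from 62.7 to 29.2. The most abundant marker of each stromal list stayed within 2-fold, with Col1a1 at 422.4 and 313.0, Upk3b at 211.6 and 181.9, Pecam1 at 109.0 and 109.5 and Adipoq at 955.2 and 635.9. None of these markers was at 0 in either library. Their part in the values of the members was not tested.

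The members were then divided by the geometric mean of the 8 macrophage markers, which was 98.2 in WT and 221.1 in Postn-DTR, a ratio of 2.25. On this scale Cd14 was 3.04 times and Tlr13 1.45 times as high in Postn-DTR, and the other 8 members had a smaller ratio there. For Tlr2, Tlr6 and Tlr7 the log2 change of the ratio was -0.25, -0.35 and -0.37, for Tlr4 and Ly96 -0.63 and -0.71, for Tlr8 -1.04, and for Tlr1 and Tlr3 -1.75 and -1.98. The macrophage markers themselves ranged in change from 0.47 to 2.40, and the sign for Tlr2, Tlr4, Tlr6, Tlr7 and Tlr13 differed with the reference. With Csf1r alone as the reference 6 members were above 0, and with Adgre1 alone 1 was, which was Cd14. Cd14 was above 0 with all 3 references, at 1.60, 2.31 and 1.03. Tlr1, Tlr3, Tlr8 and Ly96 were below 0 with all 3, although Ly96 was at -0.011 with Csf1r. Csf1r and Adgre1 are themselves among the 8 markers, so the 3 references are not independent. Itgam, which had the largest change of the markers at 2.40, was not used alone as a reference.

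**Figure D3:**
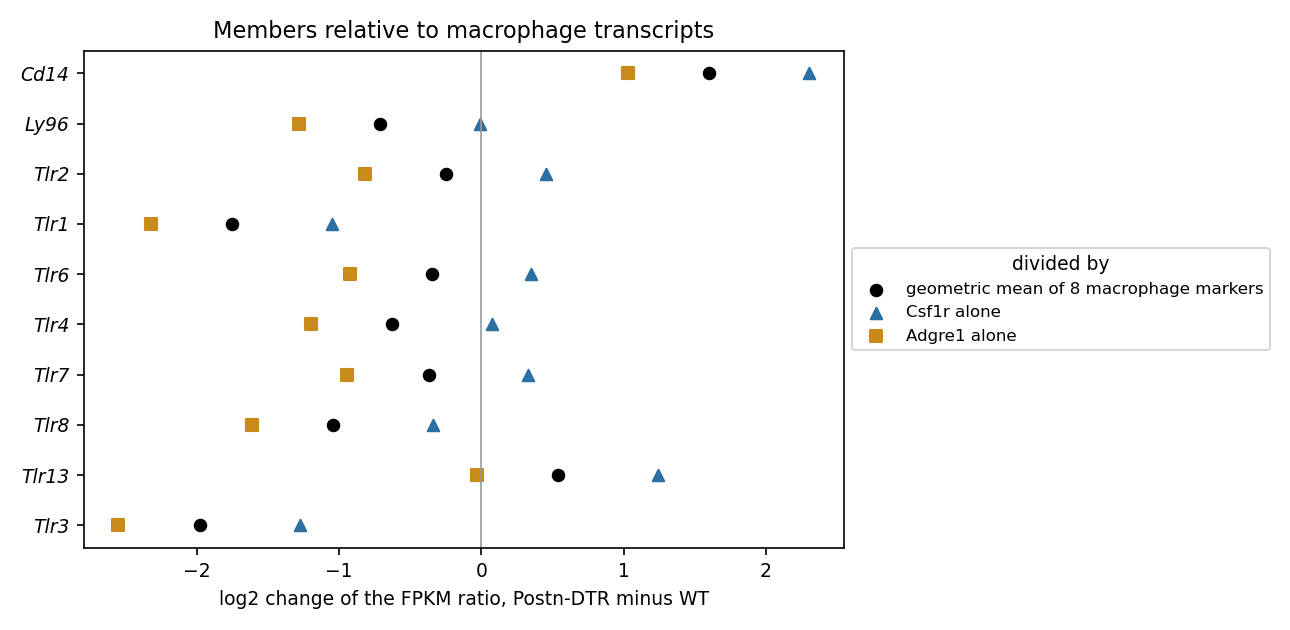
Log2 change, Postn-DTR minus WT, of the FPKM of each member divided by the geometric mean of 8 macrophage markers (circles), by Csf1r alone (triangles) or by Adgre1 alone (squares). Cd14 lies to the right of 0 with each reference, at 1.60, 2.31 and 1.03, and Tlr1 and Tlr3 lie at -1.05 or below with each.

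The other genes of the pathway were taken from 8 lists that hold 71 genes outside the members, of which 67 were compared. At least 2-fold higher in Postn-DTR were 15 of them and at least 2-fold lower were 2, where 3.88% and 3.12% of all genes were called. The median change of the 67 was 0.16. The signalling core stayed within 2-fold. None of the 4 adaptors compared was called, and the common adaptor Myd88 was at 43.5 and 67.7. Ticam1, which encodes TRIF, was at 13.6 and 13.2, and Sarm1 was under the expression minimum. None of 14 kinases and ubiquitin ligases and none of 6 transcription factors was called, with median changes of 0.08 and 0.03. Among them Irak1 was at 44.4 and 47.0, and Irf5, which acts downstream of MyD88, was at 51.3 and 55.8.

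Genes that deliver ligands or process receptors moved apart. Lbp, the plasma protein that carries lipopolysaccharide to CD14, rose from 18.3 to 61.3, or 3.36-fold. Lgmn, a lysosomal protease, rose from 169.0 to 446.4. The chaperone Unc93b1, which escorts endosomal TLRs, was at 161.3 and 174.2, and the folding chaperone Hsp90b1 was at 395.6 and 404.7. For Cd180 and Ly86, a receptor and co-receptor pair related to TLR4 and MD-2 and known from B cells, the FPKM was 20.1 and 13.7 and 87.3 and 90.3. The chaperone that endosomal members need was therefore at a similar level in both libraries, while Lbp differed in the same direction as Cd14.

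The lists of negative regulators and of products of TLR signalling held most of the calls. Of 12 genes listed as negative regulators 5 were higher (3.88% of all genes). Socs3 rose from 17.8 to 143.4, Dusp1 from 42.2 to 227.9, Nfkbia from 87.6 to 240.0, Nfkbiz from 10.6 to 32.0 and Zc3h12a, an RNase that degrades cytokine mRNA, from 9.12 to 28.9. Irak3 (12.9 and 17.0), Tollip (22.8 and 28.7) and Sigirr (7.82 and 6.47) were among the negative regulators that stayed within 2-fold. Of 12 induced cytokines and enzymes compared 8 were higher, against the same 3.88%. Most of these genes were low, and the count was 4 with a pseudocount of 5 and 2 with a minimum mean FPKM of 10. Cxcl1 rose from 1.78 to 34.9, Cxcl2 from 0.731 to 12.1, Il6 from 0.436 to 5.58, Ccl3 from 1.75 to 15.5, Il10 from 1.20 to 7.63, Il1b from 1.87 to 8.19, Ccl4 from 1.59 to 4.62 and Ccl5 from 102.2 to 207.0. The low WT values rest on few reads, about 21.6 for Il6 and 30.8 for Cxcl1. Tnf was at 3.76 and 2.26, Nos2 at 1.70 and 0.624 and Cxcl10 at 18.3 and 12.8, so 3 of the 12 genes compared had less transcript in Postn-DTR without reaching 2-fold on the log2(FPKM + 1) scale. Nos2 was 2.72-fold lower as a plain ratio and was called lower with a pseudocount of 0.1. Il12b (0.391 and 0.144), Ptgs2 and Ifnb1 were under the minimum, and Ifnb1 was listed at 0 in WT and at 0.073 in Postn-DTR, which is about 1 read. Many of these genes also respond to cytokines, glucocorticoids or adrenergic signals, and whole tissue does not show which receptor or cell they followed.

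All 6 genes for endogenous molecules that bind TLRs were within 2-fold on the log2(FPKM + 1) scale. S100a8, which can signal through TLR4, came nearest on that scale, with an FPKM of 169.7 and 338.6 and a change of 0.99. Tnc, the matrix protein tenascin C, was at 1.13 and 2.44, a plain ratio of 2.15 and a change of 0.69, and with a pseudocount of 0.1 this list had 1 gene called higher. S100a9, the partner of S100a8, was at 156.6 and 249.3. The matrix proteoglycan Bgn was at 466.2 and 522.2 and the nuclear protein Hmgb1 at 125.7 and 152.7.

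**Figure D4:**
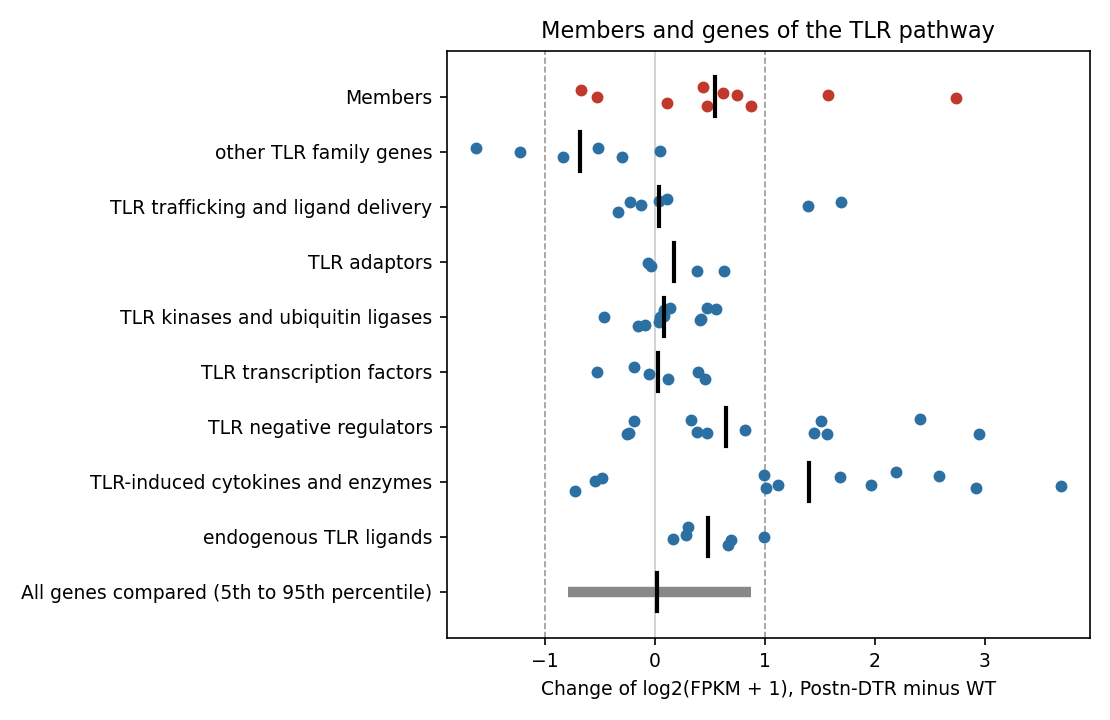
Change on the log2(FPKM + 1) scale between the WT and the Postn-DTR library for each gene compared in the members (red) and in 8 pathway lists (blue), with black bars at the medians, dashed lines at 2-fold and a grey bar from the 5th to the 95th percentile of all genes compared (-0.79 to 0.87). The lists of adaptors, kinases and transcription factors lie between the dashed lines, and the list of induced cytokines and enzymes has its median at 1.40.

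Scaling was examined because the total FPKM of the libraries differed, at 542190 (WT) and 671882 (Postn-DTR). Cd14 and Tlr13 were at least 2-fold higher under all 7 alternatives to the pseudocount, the expression minimum and the scaling for which they were recomputed, with changes from 2.40 to 2.77 for Cd14 and from 1.20 to 1.70 for Tlr13. The expression minimum decides only whether a gene is compared, so its alternatives could not alter these changes. Tlr3 and Tlr1 were negative in every alternative in which they were compared, from -0.94 to -0.41 for Tlr3 and from -0.83 to -0.40 for Tlr1. Only the 3 scalings could have turned a sign, since a pseudocount or a minimum cannot. With equal totals after leaving out the acinar genes, the median change of all genes moved by -0.30, and the median of the members minus that of all genes was 0.54, against 0.53 as deposited. This setting multiplies every Postn-DTR value by the same factor. Members and all genes therefore shift nearly together, and the difference of their medians could hardly change.

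**Figure D5:**
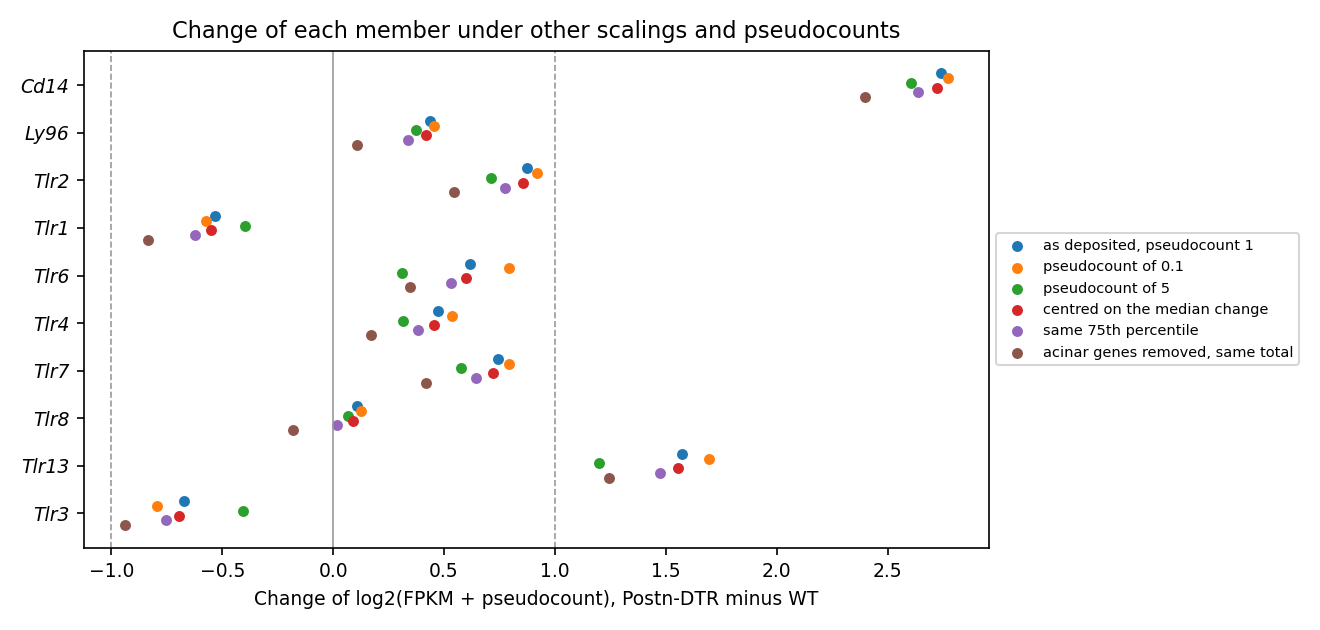
Log2 change of each member from WT to Postn-DTR with the FPKM as deposited and with 5 other pseudocounts or scalings (colours), with dashed lines at 2-fold. Cd14 and Tlr13 stay to the right of the 2-fold line, and Tlr8 lies on both sides of 0, from -0.18 to 0.12.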

How the data were processed

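RNA came from entire omenta, and per the labels the TruSeq kit used for mRNA libraries keeps strand. The RNA-seq methods of the paper, which open with sorted omental cells, name a NEBNext Ultra kit and single-end reads instead. Which kit made these libraries was not settled here. The authors deposited FPKM, 1 value per gene symbol and library. The submitters' processing notes name TopHat2 2.1.1, Bowtie2 2.2.8, SAMtools 0.1.18, Cuffdiff 2.2.1 and build mm10, whose coordinates are those of GRCm38. The annotation was not given in the sources used here, so positions and lengths came from GENCODE M21. Groups came from the genotype labels. Log2 changes with a pseudocount of 1, list counts, ratios and counting intervals were computed in Python 3.11.15 (scipy 1.17.1) and the arithmetic of the calls was checked on made-up noise-free data with known folds. Total fragments were chosen so that low values of genes with 1 annotated transcript (395 in WT, 339 in Postn-DTR) came out whole, and 80.9% and 80.4% came within 0.1 of a whole read. This depth is approximate.

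The members and the gene lists were chosen with earlier results of these data known. Genes named are the members, genes of the lists past 2-fold and the most abundant gene of a list, with acinar genes given as sums. Other genes were named after their values were seen. Acod1 was matched through its older symbol, and Ly6g was not analysed here. Alternatives were pseudocounts of 0.1 and 5, no minimum or a minimum of 10, 3 scalings, thresholds of 1.5-fold and 3-fold, and other macrophage references. Sequences came from RefSeq and GENCODE tables. Promoter windows outside chromosome 18 matched 6 of the 10 members.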

Additional observations from a re-analysis of the deposited data

How the results depend on the processing

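With 1 library per genotype no result has a replicate check, and the counting intervals rest on estimated reads. The number of members at least 2-fold higher stayed at 2, and the number lower at 0, under every alternative to the pseudocount, the minimum and the scaling. At a 1.5-fold threshold 5 members were higher and 1 lower, where 9.86% and 8.84% of all genes were called, and at a 3-fold threshold 1 was higher. The median change of the members, 0.54, was 0.81 with a minimum mean FPKM of 10, which left 6 members, and 0.26 with equal totals after leaving out acinar genes. The 509 higher and 410 lower genes of the whole comparison (55.4% of calls higher) became 294 and 759 (27.9%) under that scaling, 642 and 643 at pseudocount 0.1, 287 and 168 at pseudocount 5, 303 and 173 with the minimum of 10, 1294 and 1160 at 1.5-fold and 199 and 153 at 3-fold. The 8 induced cytokines and enzymes called higher became 4 at pseudocount 5, 2 with the minimum of 10, 6 with equal totals and 9 at pseudocount 0.1. Cd14 and Tlr13 kept their sign, whereas Tlr8 turned to -0.18 and the median of the trafficking list, 0.03, turned to -0.071 at equal 75th percentiles and -0.31 at equal totals. The medians of the adaptors, kinases and transcription factors (0.17, 0.08 and 0.03) also turned negative at equal totals, to -0.13, -0.25 and -0.30. No paired analysis was possible because each genotype had 1 library.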

Other observations

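Other sensors of microbial products were looked at after the values of the members were known. Of 12 cytosolic and secreted sensor genes, all of which were compared, none was at least 2-fold higher in Postn-DTR and 1 was at least 2-fold lower. Over all genes compared, 3.88% were called higher and 3.12% lower. The median change of the 12 was -0.007. The lower gene was Pglyrp2, a peptidoglycan amidase, which fell from an FPKM of 4.36 to 1.55. The peptidoglycan sensors Nod1 (26.7 and 29.0) and Nod2 (1.56 and 1.64) had similar values in both libraries. The RNA sensor Ddx58, which encodes RIG-I, was at 18.7 and 12.7, and Ifih1, which encodes MDA5, was at 8.33 and 7.96. Tmem173, which encodes STING, was at 36.1 and 38.2. Nlrp3 (2.11 and 3.34) and Pglyrp1 (17.0 and 29.4), an antibacterial protein of neutrophil granules, were within 2-fold.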
